A study of Mus musculus with 5 samples.

Results

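The genes described here are 10 proinflammatory cytokines and chemokines, Il1b, Il1a, Tnf, Il6, Ccl2, Ccl3, Ccl4, Cxcl1, Cxcl2 and Cxcl10, taken by symbol from the 55385 genes of each count table. Total RNA of the hippocampus was sequenced in 5 libraries. All animals were male C57/bl6 mice, 3 months old. The control library came from untreated mice, and the others from mice given 20 mg/kg kainic acid intraperitoneally, an agonist of glutamate receptors that provokes seizures. Hippocampi were taken 1 h (1 library), 4 h (2 libraries, replicates 1 and 2) or 8 h (1 library) after seizure onset, and animals were used that had reached stage 5 of a modified Racine scale. The sources used here do not give the number of mice behind each library, so p-values do not measure a known spread between mice. In the main test they rest on the spread between the 2 libraries at 4 h, the only time point with more than 1. Depth, in reads assigned to genes, was 19100374 for the control, 17744508 for 1 h, 18250114 for 4 h replicate 1, 19109204 for 4 h replicate 2 and 16612225 for 8 h.

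Interleukin-1, TNF and interleukin-6 are secreted signals of innate immunity that act on receptors of glia, endothelium and neurons. Chemokines are small secreted proteins that draw leukocytes along a gradient; the CC group mainly attracts monocytes and lymphocytes, and Cxcl1 and Cxcl2 mainly attract neutrophils. In the brain microglia, astrocytes and endothelial cells can all make them, and their genes are classical targets of the transcription factor NF-kB, with short-lived mRNAs.

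Il1b (ENSMUSG00000027398.13, chr2:129364570-129371139, minus strand) and Il1a (ENSMUSG00000027399.1, chr2:129299610-129309972, minus strand) are neighbours on chromosome 2 of GRCm38. Tnf (ENSMUSG00000024401.14) lies at chr17:35199381-35202007 on the minus strand, and Il6 (ENSMUSG00000025746.11) at chr5:30013114-30019981 on the plus strand. The CC chemokine genes are on chromosome 11: Ccl2 (ENSMUSG00000035385.5) at 82035571 to 82037453, Ccl3 (ENSMUSG00000000982.5) at 83647844 to 83649355 and Ccl4 (ENSMUSG00000018930.3) at 83662584 to 83664683. The CXC chemokine genes are on chromosome 5: Cxcl1 (ENSMUSG00000029380.11) at 90891241 to 90893115, Cxcl2 (ENSMUSG00000058427.10) at 90903871 to 90905938 and Cxcl10 (ENSMUSG00000034855.13) at 92346638 to 92348889. Antisense exons of other genes overlap 11.2% of the exon length of Il1a, 5.91% of Cxcl10 and 1.31% of Il1b. The library kit was a stranded one, but the strand setting of the counting is not given in the sources used here, so it is open whether reads of such neighbours were kept apart.

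Promoters, taken as 250 bases before to 50 after the start, were available for 8 of the 10 genes in a table from RefSeq (GRCm38.p6); Ccl2 and Ccl4 had no entry. The letters GGNNTTTCC, a form of the NF-kB motif, were found on either strand in 4 of the 8 (Il6, Cxcl1, Cxcl2 and Cxcl10) and in 5.82% of 32851 promoters. The AP-1 letters TGANTCA were found in 3 (Il1a, Il6 and Cxcl10; 7.81% of promoters), TATAAA in 3 (Il1b, Il1a and Tnf; 13.6%), AAANNGAAA, a form of the element bound by interferon regulatory factors, in 1 (Cxcl10; 10.6%) and the CRE letters TGACGTCA in 0 (1.79%). A match describes the letters of this window and is not a measured binding site. The neighbours Cxcl1 and Cxcl2 are printed because each holds a pair of NF-kB matches, starting 89 and 70 bases before the start in Cxcl1 and 96 and 77 bases before it in Cxcl2. Ccl3, among the most abundant of the 10 at 4 h, is printed because it holds none of the motifs searched. Capitals mark GGNNTTTCC on either strand, and each line runs 5′ to 3′ along the gene: Cxcl1 is chr5:90890995-90891294 (plus strand), Cxcl2 chr5:90903649-90903948 (plus strand) and Ccl3 chr11:83649329-83649628 (minus strand).
Cxcl1: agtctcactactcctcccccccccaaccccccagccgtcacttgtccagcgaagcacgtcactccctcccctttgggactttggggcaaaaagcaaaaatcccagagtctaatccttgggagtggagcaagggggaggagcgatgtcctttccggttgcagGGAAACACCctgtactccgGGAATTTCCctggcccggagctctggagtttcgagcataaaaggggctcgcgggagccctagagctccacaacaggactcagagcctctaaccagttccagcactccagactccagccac
Cxcl2: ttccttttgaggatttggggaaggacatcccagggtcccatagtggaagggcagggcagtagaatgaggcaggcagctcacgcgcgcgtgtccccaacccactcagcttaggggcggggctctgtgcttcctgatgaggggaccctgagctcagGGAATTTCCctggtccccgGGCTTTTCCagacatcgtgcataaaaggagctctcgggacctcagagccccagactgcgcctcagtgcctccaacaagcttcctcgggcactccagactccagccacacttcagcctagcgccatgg
Ccl3: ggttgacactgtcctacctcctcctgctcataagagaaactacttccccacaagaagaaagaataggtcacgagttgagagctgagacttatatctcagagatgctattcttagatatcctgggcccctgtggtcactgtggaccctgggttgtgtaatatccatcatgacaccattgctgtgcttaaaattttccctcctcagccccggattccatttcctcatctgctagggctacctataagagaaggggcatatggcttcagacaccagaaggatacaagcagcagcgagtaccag

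The 4 h libraries stood apart from each other, which bears on every value at 4 h. Among 19768 genes that passed edgeR's filter on low counts, 2171 differed at least 2-fold between them, with an SD of the log2 ratio of 0.70 (1 count added to each). The activity marker Fos had 215 reads in the control, 17563 at 1 h, 8743 in replicate 1 and 1331 in replicate 2 at 4 h, and 302 at 8 h. Npas4, a transcription factor of active neurons, had 78, 12204, 2189, 93 and 90 reads in the same order. The libraries at 1 h and of replicate 1 were thus high for all 5 activity markers, whereas replicate 2 was past 2-fold for Fos and Arc, and the 8 h library for none. The summed level of these markers was 225 normalized CPM in the control (library sizes scaled with TMM factors), 4536 at 1 h, 3505 and 1069 in the 4 h replicates, and 215 at 8 h. Ttr, the transthyretin gene and the most abundant choroid plexus marker, had 74570 reads in the control, 27643 at 1 h, 275 in replicate 1 and 75088 in replicate 2 at 4 h, and 50562 at 8 h. All 4 choroid plexus markers were lower in replicate 1, and their sum was 3932, 1662, 26.4, 4176 and 3032 normalized CPM. The share of reads on no gene was 33.1% in replicate 1 and 25.3% in replicate 2. Values at 4 h are therefore given for each replicate, and the part of these differences in them was not tested.

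As a sum, the 10 genes had few reads in the control and more in each kainic acid library. Their reads summed to 17 in the control, 167 at 1 h, 584 and 81 in replicates 1 and 2 at 4 h, and 69 at 8 h. The sum was 11.1 times the control at 1 h (95% interval 6.74 to 19.6), 40.6 times (25.1 to 70.2) in replicate 1, 5.02 times (2.95 to 9.03) in replicate 2 and 4.61 times (2.68 to 8.36) at 8 h. Intervals here and for single counts and ratios are exact, cover counting error alone and say nothing of the spread between mice. Ccl3 and Ccl4 made up 73.5% of the reads in replicate 1, 51.9% in replicate 2, 31.9% at 8 h and 13.8% at 1 h. Leaving them out, the 1 h sum was 11.6 times the control, that of the 4 h replicates 13.1 and 2.93 times, and the 8 h sum 3.81 times. In bulk tissue, a change in the number of cells of a type, such as fewer cells, and a change in RNA per cell, such as less RNA per cell, cannot be told apart.

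**Figure D1:**
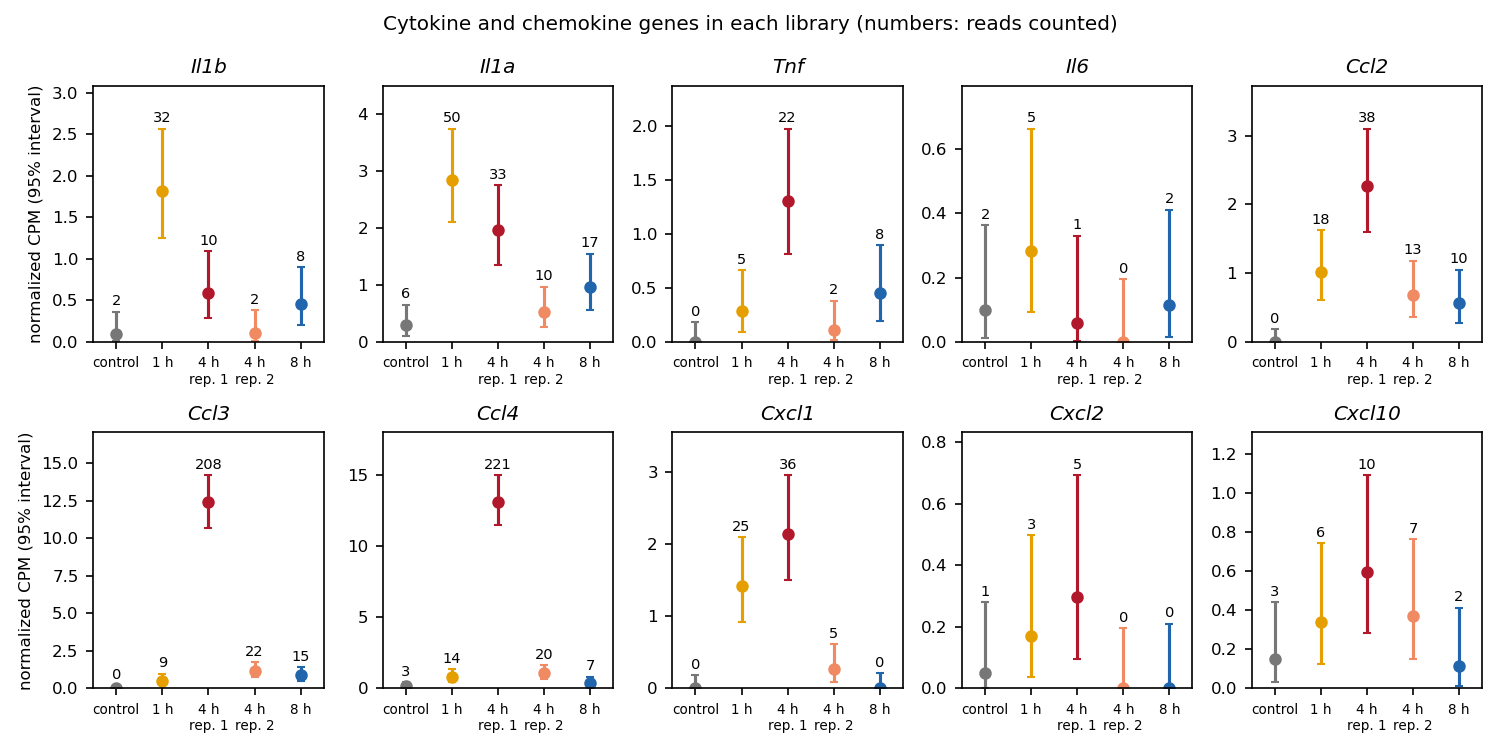
Normalized CPM of each gene (vertical axes, from 0) in the control, 1 h, 4 h replicate 1, 4 h replicate 2 and 8 h libraries; bars are exact Poisson 95% intervals and numbers are reads counted. Ccl3 and Ccl4 reached 208 and 221 reads in replicate 1 at 4 h, against 22 and 20 in replicate 2.

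**Figure D2:**
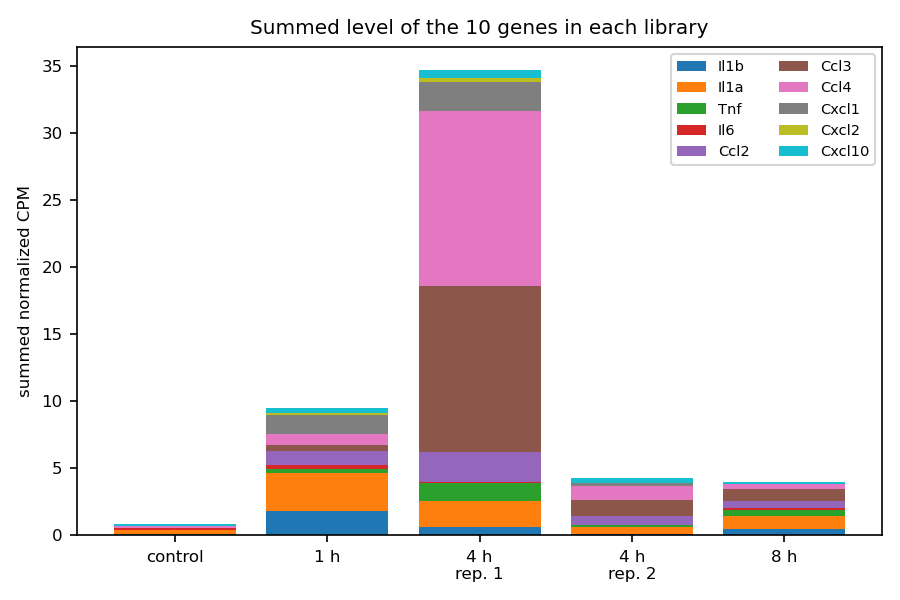
Bars show the summed normalized CPM of the 10 genes in each library, stacked by gene. The tallest bar is replicate 1 at 4 h with 34.7, and the control has 0.854.

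Il1b encodes interleukin-1 beta, which is made as a precursor and cleaved by caspase-1. It had 2 reads in the control, 32 at 1 h, 10 and 2 in replicates 1 and 2 at 4 h, and 8 at 8 h. The 1 h library was highest, and it was above the next one, replicate 1, beyond the counting interval; the other neighbours in the order were not. The ratio to the control was 18.1 (4.62 to 156) at 1 h, 5.91 (1.26 to 55.5) in replicate 1 and 4.54 (0.906 to 43.9) at 8 h, and no fold is given for replicate 2, which had 2 reads like the control. Replicate 1 was at 0.326 (0.143 to 0.68) and replicate 2 at 0.0581 (0.00675 to 0.228) of the 1 h level.

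Il1a encodes interleukin-1 alpha, which acts on the same receptor. It was counted 6 times in the control, 50 at 1 h, 33 and 10 in the replicates at 4 h, and 17 at 8 h. The 1 h library and replicate 1 were the highest and did not differ beyond counting error, and replicate 2 was not above the control beyond it. Ratios to the control were 9.44 (4.04 to 26.9) at 1 h, 6.5 (2.69 to 19) in replicate 1, 1.75 (0.578 to 5.87) in replicate 2 and 3.22 (1.21 to 9.96) at 8 h.

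Tnf encodes tumour necrosis factor, a membrane protein released by the protease ADAM17. It had 0 reads in the control, 5 at 1 h, 22 and 2 in the replicates at 4 h, and 8 at 8 h. Replicate 1 was the highest, 12.4 times (3.04 to 108) replicate 2, which was the lowest library after the control. With a count of 0 in the control, folds were taken against a floor of 3 reads there (0.151 normalized CPM). Such bounds take the higher count as it stands, without its counting error. Tnf was at least 8.67-fold higher in replicate 1 and at least 3.03-fold higher at 8 h, while no fold is given for replicate 2. The bound at 1 h was lower, at 1.89-fold.

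Il6, an inducer of the acute phase response, had 2 reads in the control, 5 at 1 h, 1 and 0 in the replicates at 4 h, and 2 at 8 h. No library differed from its neighbour in the order beyond counting error, and a change in Il6 was not detectable at this depth.

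Ccl2, which attracts monocytes through the receptor Ccr2, had 0 reads in the control, 18 at 1 h, 38 and 13 in the replicates at 4 h, and 10 at 8 h. It was above the control in each kainic acid library, and the range of the 4 h pair held the 1 h value. Against the floor it was at least 6.79-fold higher at 1 h, at least 15-fold in replicate 1, at least 4.56-fold in replicate 2 and at least 3.78-fold at 8 h. Replicate 1 was 3.28 times (1.71 to 6.72) replicate 2.

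Ccl3 and Ccl4 encode chemokines once named macrophage inflammatory proteins. Ccl3 had 0 reads in the control, 9 at 1 h, 208 and 22 in the replicates at 4 h, and 15 at 8 h. Ccl4 had 3, 14, 221, 20 and 7 reads in the same libraries. Replicate 1 was the highest library for both genes, beyond counting error; among the other kainic acid libraries, neighbours in the order did not differ beyond it, but Ccl3 in replicate 2 was 2.27 times (1.01 to 5.61) the 1 h level, and Ccl4 there 2.65 times (1.08 to 7.41) the 8 h level. Ccl3 was at least 3.4-fold higher than the control at 1 h, at least 82-fold in replicate 1, at least 7.72-fold in replicate 2 and at least 5.68-fold at 8 h. For Ccl4 the ratio was 5.28 (1.47 to 28.7) at 1 h, 87.1 (29.4 to 425) in replicate 1, 7.02 (2.08 to 36.9) in replicate 2 and 2.65 (0.605 to 15.9) at 8 h. The replicates differed by a factor of 10.6 (6.83 to 17.3) for Ccl3 and 12.4 (7.84 to 20.7) for Ccl4.

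Cxcl1 encodes a ligand of the neutrophil receptor Cxcr2. It had 0 reads in the control, 25 at 1 h, 36 and 5 in the replicates at 4 h, and 0 at 8 h. The 1 h library and replicate 1 were high and did not differ beyond counting error, replicate 2 was lower than both, and the 8 h library was back at the control's count of 0. Against the floor, the bound for Cxcl1 in replicate 2 was 1.75-fold, with a lower counting limit of 0.965. Cxcl1 was at least 9.44-fold higher than the control at 1 h and at least 14.2-fold higher in replicate 1, and the 1 h level was at least 8.31-fold above that at 8 h. Its neighbour Cxcl2 had 1, 3, 5, 0 and 0 reads, too few for a difference to be detectable. Cxcl10, an interferon-induced ligand of Cxcr3, had 3, 6, 10, 7 and 2 reads. Its ratio to the control was 3.94 (1.01 to 22.3) in replicate 1 and 2.46 (0.561 to 14.7) in replicate 2, and the pair differed by less than counting error.

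**Figure D3:**
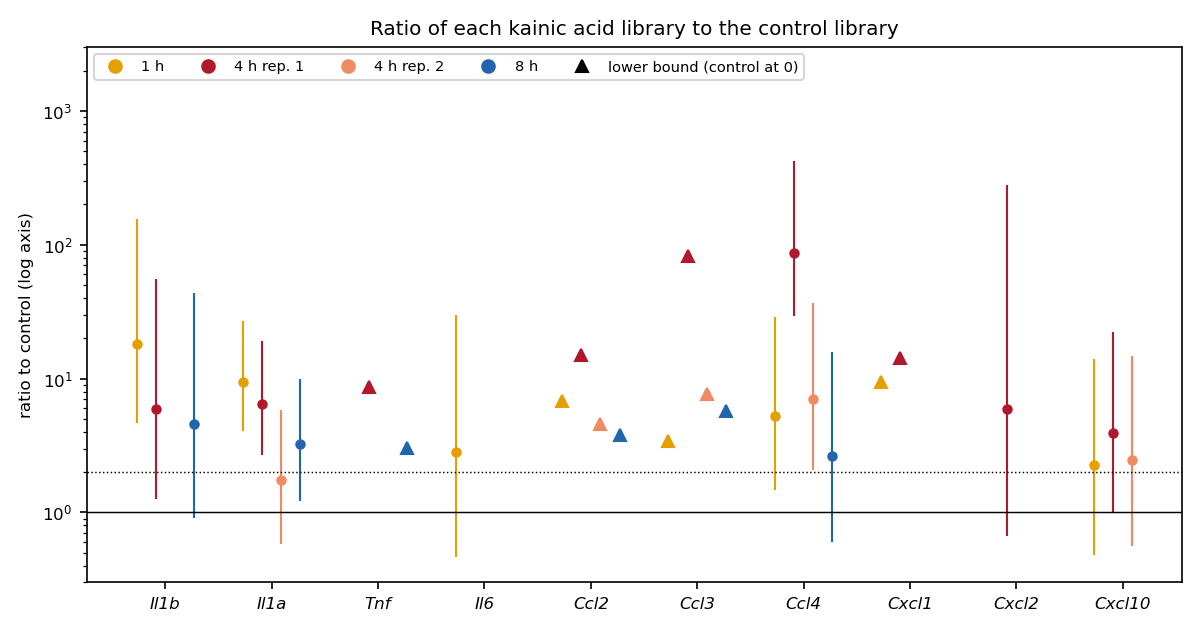
Ratio of each kainic acid library to the control (vertical log axis) for each gene, with exact 95% intervals as bars; triangles are lower bounds against 3 reads where the control was at 0 and the count was clear of that floor, and the lines mark ratios of 1 and 2. Replicate 1 at 4 h (dark red) lay above replicate 2 for every gene with a point in both.

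Levels of different genes were set side by side per kilobase of exon, with exon length taken as the union over all annotated transcripts. For Cxcl1, Cxcl2 and Cxcl10 this union was 1 block over the whole gene. Their values per kb may therefore be too low beside those of the other genes. By this measure Ccl4 and Ccl3 were the highest of the 10 in replicate 1, with 19.9 and 16.1 normalized CPM per kb, followed by Ccl2 with 1.98. The same genes led in replicate 2, with 1.6, 1.52 and 0.604, and at 8 h, with 0.605, 1.12 and 0.501. In the 8 h library Il1a, with 0.491, was nearly level with Ccl2. At 1 h the levels lay closer together, from Il1a with 1.44 and Ccl4 with 1.21 to Cxcl2 with 0.0825. The low place of Cxcl2 carries the limit on exon length.

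As a description, a gene was counted as higher where its ratio to the control was at least 2 and the lower limit of the interval was above 1. At 1 h this held for 6 of the 10 genes (Il1b, Il1a, Ccl2, Ccl3, Ccl4 and Cxcl1), against 2.23% of the 32732 genes with a read in any library. At 4 h it held for 8 genes in replicate 1 (6.58% of all genes), for Ccl2, Ccl3 and Ccl4 in replicate 2 (2.99%), and for the same 3 in both (2.07%). At 8 h it held for 4 genes, Il1a, Tnf, Ccl2 and Ccl3 (3.03%). By the same rule in the lower direction 0 of the 10 genes were lower in any library, against 1.22% of all genes at 1 h, 3.29% in replicate 1, 1.55% in replicate 2, 0.651% in both and 1.37% at 8 h. Nothing can be read from this 0, since 4 of the genes had no read and 5 had 1 to 3 reads in the control, too few to be called lower. With counts under 3 set to 3, the median log2 ratio of the 10 genes was 2.08 for 1 h, 2.91 for replicate 1, 0.81 for replicate 2 and 1.5 for 8 h. Over the 19768 genes tested it was 0.00, -0.01, 0.00 and 0.01. For genes with no more than 3 reads in the control, this floor left no room for a ratio clearly below 0. The sign of the median of the 10 genes was therefore fixed and says nothing beside that of all genes. All comparisons share the control library.

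The test over all genes used edgeR's quasi-likelihood model, in which the single libraries were assumed to vary like the 4 h pair. Of the 10 genes 8 passed the filter, and Il6 and Cxcl2 did not. With Benjamini-Hochberg adjustment edgeR called 0 of the 8 at 1 h (0% of 19768 genes; 478 at an unadjusted p under 0.05), 0 at 4 h (0.00506%, that is 1 gene; 2291) and 0 at 8 h (0%; 892). Between time points it called 0 of the 8 at 4 h versus 1 h (0.00506%; 1569 unadjusted) and 0 at 8 h versus 4 h (0%; 1726). Before adjustment, p was under 0.05 for Il1b, Il1a, Ccl2 and Cxcl1 at 1 h, for Ccl2, Ccl3, Ccl4 and Cxcl1 at 4 h, for Ccl2 at 8 h, for Il1b between 1 h and 4 h, and for Cxcl1 between 4 h and 8 h. DESeq2, which gives an adjusted p only to genes with a high enough mean over the libraries, called Ccl3 and Ccl4 at 4 h (1.63% of 14329 genes). These were the only 2 it gave one there, and most of their reads came from replicate 1, so the share called cannot be read. It called 0 of 3 at 1 h (0.308% of 16232) and 0 of 5 at 8 h (0.189% of 17502). With limma-voom 0 of the 8 were called in each comparison. It called 0 of all genes at 1 h, 4 h and 8 h, so that 0 says nothing about the 8.

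The fitted log2 fold change of Ccl4 at 4 h was 4.78 (SE 1.96; adjusted p = 0.401 in edgeR), and it was past the threshold under 4 of 8 alternatives, with adjusted p between 1.34e-13 and 0.609. For Ccl3 the adjusted p in edgeR was 0.352, with 5 of 8 alternatives past the threshold and a range from 1.06e-16 to 0.531; no SE is given because the control was at 0. Fitted without replicate 1, with no test, the log2 fold change at 4 h was 2.17 for Ccl4 and 3.55 for Ccl3, against 4.78 and 5.96 with it. Because the control had no Ccl3 reads, its fitted value depends on the prior count, and it was 9.94 with a smaller one. At 1 h the fitted log2 fold change was 3.20 for Il1b (SE 1.35) and 2.84 for Il1a (SE 1.09), both with an adjusted p of 1 in edgeR, and 2 of 7 (lowest adjusted p 0.000257, highest 1) and 2 of 8 alternatives (0.00025 to 1) called them. Il1b was lower at 4 h than at 1 h by a log2 fold change of -2.09 (SE 0.92; adjusted p = 0.612 in edgeR; 0.00228 to 0.648 over the alternatives), and both replicates lay below the 1 h library. The edgeR tests rest on 1 residual degree of freedom from a pair that differed widely.

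Of 14 receptors and antagonists, 1 was past the same 2-fold rule at 1 h, 3 in replicate 1, 2 in replicate 2 and 3 at 8 h. As a background for this and the later lists, 2.23% of all genes were past the rule at 1 h and 3.03% at 8 h. In replicates 1 and 2 the shares were 6.58% and 2.99%, and in both 2.07%. Il1r2 and Tnfrsf1a were past the rule in both replicates. None of the list was past it in the lower direction, and edgeR called 0 of the 11 it tested. Il1r2, a decoy receptor that binds interleukin-1 without signalling, had 3 reads in the control, 6 at 1 h, 18 and 23 in the 4 h replicates, and 2 at 8 h. Its 4 h replicates were both above the other libraries, with ratios to the control of 7.09 (2.07 to 37.6) and 8.07 (2.44 to 42). Il1r1, the signalling receptor, had 328, 230, 650, 605 and 371 reads. The pair at 4 h was again above the rest, at 2.34 (2.05 to 2.68) and 1.94 (1.69 to 2.23) times the control. Tnfrsf1a, the main TNF receptor, had 78, 89, 261, 178 and 146 reads, and all later libraries exceeded the control. Il6st, the shared signal transducer of the interleukin-6 family, had the most reads of the list over all libraries and stayed between 0.94 and 1.2 times the control. Il1rap ranged from 0.676 to 1.21 times and Tnfrsf1b from 1.2 to 1.79 times.

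Of 7 genes of processing and release, 1 was past the rule at 1 h, 2 in replicate 1, 0 in replicate 2 and 0 at 8 h, and edgeR called 0 of 7. Casp1, the caspase that cleaves the interleukin-1 beta precursor, was lower by the rule at 8 h, at 0.262 times (0.127 to 0.497) the control, with 52, 46, 27, 33 and 12 reads. Nlrp3, the sensor of the inflammasome, had 8 reads in the control, 21 at 1 h, 20 and 17 in the 4 h replicates, and 10 at 8 h. Casp4, a caspase of the noncanonical inflammasome, had 5, 4, 22, 12 and 10 reads, a ratio of 5.2 (1.92 to 17.6) in replicate 1 and 2.53 (0.828 to 9.15) in replicate 2. Adam10 and Adam17, proteases that shed membrane proteins, stayed within 0.792 and 1.18 times the control, and the adaptor Pycard within 0.784 and 1.37 times.

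Of 8 genes of mRNA decay and feedback, 3 were past the rule at 1 h, 6 in replicate 1, 3 in replicate 2, 3 in both replicates and 1 at 8 h, and edgeR called 0 of 8. Zfp36, which encodes a protein that binds AU-rich mRNA and promotes its decay, had 31 reads in the control, 154 at 1 h, 154 and 35 in the 4 h replicates, and 35 at 8 h. Replicate 2 and the 8 h library were thus near the control. Dusp1, a phosphatase of MAP kinases, had 161, 1545, 647, 158 and 96 reads, with replicate 2 near the control and the 8 h library at 0.677 (0.52 to 0.877) times it. Socs3, an inhibitor of cytokine signalling, had 31, 60, 655, 91 and 138 reads. It was higher than the control in each kainic acid library, by 25 times (17.4 to 37.1) in replicate 1 and 3.09 times (2.04 to 4.81) in replicate 2. Nfkbia, an inhibitor of NF-kB and one of its targets, had 384, 552, 827, 844 and 421 reads, and here the replicates were alike, at 2.55 (2.25 to 2.88) and 2.31 (2.05 to 2.62) times the control. Zc3h12a, an RNase that degrades cytokine mRNA, ranged from 1.2 to 2.57 times.

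The pentamer ATTTA, the core of AU-rich elements, was counted in the mRNAs. In the longest annotated 3′ untranslated region of each gene, the pentamer occurred between 2.72 and 12.2 times per kb, with a median of 6.99. The median was 1.32 over 14610 tested genes, of which 23.2% were at or above the lowest of the 10. The nonamer TTATTTATT was found in 3 of the 10 genes (Tnf, Cxcl1 and Cxcl2) and in 8.47% of those genes. This count was added after the reads had been seen and describes sequence alone.

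Among 14 targets of interleukin-1, TNF and interferon, Icam1, Lcn2 and Ptgs2 were past the rule in each 4 h replicate; 1 gene was past it at 1 h and 4 at 8 h, and edgeR called 0 of the 10 it tested. Lcn2, which encodes the secreted iron-binding protein lipocalin 2, had 6 reads in the control, 2 at 1 h, 83 and 101 in the 4 h replicates, and 101 at 8 h. All 3 later libraries were alike and far above the earlier ones, with ratios of 16.4 (7.2 to 45.8), 17.7 (7.86 to 49.4) and 19.1 (8.48 to 53.3). Ptgs2, which encodes cyclooxygenase-2 and is also induced by neuronal activity, had 461, 7778, 11308, 4621 and 1028 reads. It was highest in replicate 1. Icam1, an adhesion molecule for leukocytes, had 32, 38, 109, 62 and 113 reads, with replicate 1 and the 8 h library at 4.03 and 4.01 times the control. Vcam1 ranged from 0.679 to 1.1 times, and Gbp2, an interferon-induced GTPase, reached 2.11 times (1.55 to 2.91) at 8 h.

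Of 23 other chemokines, 3 were past the rule in both replicates (Ccl7, Ccl9 and Ccl12), 2 at 1 h, 5 in replicate 1, 4 in replicate 2 and 1 at 8 h; 1 was lower in replicate 1, and edgeR called 0 of the 13 it tested. Ccl7, a monocyte chemokine encoded beside Ccl2, had 0 reads in the control, 26 at 1 h, 18 and 7 in the 4 h replicates, and 3 at 8 h. Ccl12 had 1, 6, 23, 9 and 28 reads, and was the one of this list past the rule at 8 h. Ccl9 had 24, 39, 91, 53 and 31 reads, Cxcl5 had 4, 12, 4, 26 and 11, and Cx3cl1, the neuronal chemokine that microglia sense, was the most abundant with 1.17 to 1.53 times the control. Cxcl14 stayed between 0.998 and 1.05 times. Of 25 other cytokines, 0 were past the rule in both replicates, 1 at 1 h, 3 in replicate 1 and 1 at 8 h. With 2.23% of all genes past it at 1 h and 3.03% at 8 h, the counts there are not read as a result about the list. In the lower direction 1 was past it at 1 h, 3 in replicate 1 and 1 in replicate 2, and edgeR called 0 of the 12 it tested. Lif, a cytokine of the interleukin-6 family, had 10, 20, 79, 20 and 118 reads, and so was high in replicate 1 and at 8 h. Il11 and Osm, of the same family, had 42 and 26 reads in replicate 1 against 5 and 2 in replicate 2. Il16 was at 0.404 (0.356 to 0.457) and 0.596 (0.536 to 0.661) times the control at 4 h, Il33 between 0.777 and 1.18 times, and Tgfb1 between 1.05 and 1.72 times.

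**Figure D4:**
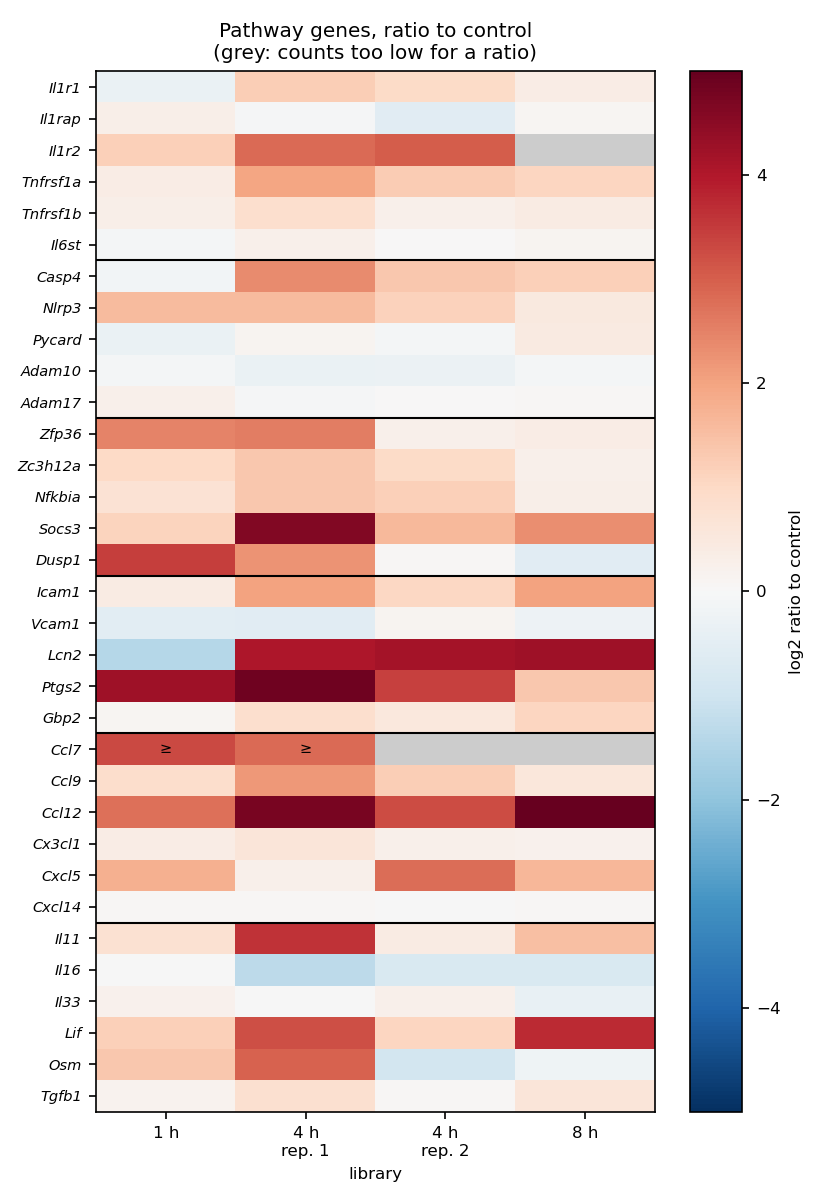
Colours give the log2 ratio to the control of genes chosen by rule from 6 lists, from top to bottom: receptors, processing, decay and feedback, targets, other chemokines and other cytokines, with columns for the kainic acid libraries. Grey marks counts too low for a ratio, and ≥ a lower bound; Lcn2 was high in 3 libraries, and Socs3 highest in replicate 1.

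Markers of cells that make or answer these signals were set beside the values. In edgeR 0 genes of these lists were called; it tested 3 of 9 neutrophil and monocyte markers, 0 of 7 lymphocyte markers, for which the 0 says nothing, and all of the others. The 11 microglial markers, with none at 0, summed to 339 normalized CPM in the control, 358 at 1 h, 339 in each 4 h replicate and 341 at 8 h; 0 were past the rule upwards and 1 was lower, in replicate 1. Single microglial markers ran from 0.436 to 1.4 times the control in replicate 1 and from 0.558 to 1.28 times in replicate 2, which the sum does not show. Neutrophil and monocyte markers were few: the 9 genes summed to 29, 36, 88, 40 and 43 reads, with S100a9 the most abundant over all libraries, Elane at 0 in all 5 libraries and Ly6g at 0 in the 4 kainic acid libraries. Mpo made up 52 of the 88 reads in replicate 1, and was past the rule in both replicates. The sum in replicate 1 was 3.59 times (2.33 to 5.66) the control, and Ccr2, with 5, 3, 9, 1 and 15 reads, was past the rule at 8 h alone. Of 7 lymphocyte markers Cd3d was at 0 throughout, and the sum, led by Cd4, lay between 5 and 7 reads, with 0 past the rule. Their part in the results was not tested.

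Red blood cell markers (5 genes, led by Hbb-bs, with near-identical copies that share reads) summed to 135, 113, 237, 150 and 182 normalized CPM in the control, 1 h, replicate 1, replicate 2 and 8 h libraries. The 5 endothelial markers, led by Flt1, summed to 86, 84.3, 132, 77 and 98.4, and both lists were highest in replicate 1, with 2 and 1 genes past the rule there, 1 endothelial gene lower in replicate 2 and 0 past it elsewhere. Astrocyte markers (5 genes, led by Slc1a2) summed to 3537, 3745, 4507, 4107 and 3996, and Gfap was the 1 gene past the rule, at 2.7 and 2.31 times the control at 4 h and 2.66 times at 8 h. Oligodendrocyte markers (4 genes, led by Mbp) gave 2581, 3156, 2980, 3807 and 2377, with 0 past the rule. Neuronal markers (5 genes, led by Map2) gave 5239, 5463, 5921, 5296 and 5085, again with 0. Markers of hippocampal principal neurons (5 genes, led by Neurod6) gave 436, 418, 389, 384 and 373, and were present in every library. Of these, Neurod6 was lower in both 4 h replicates, with 2868 reads in the control, 2544 at 1 h, 1025 and 1268 in the 4 h replicates, and 1823 at 8 h, and 1 gene was higher in replicate 1. Markers of meninges and fibroblasts (4 genes, led by Dcn) gave 60.7, 32.4, 49.7, 51.9 and 41.6, with 1 lower at 1 h. No list in this paragraph had a marker at 0.

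**Figure D5:**
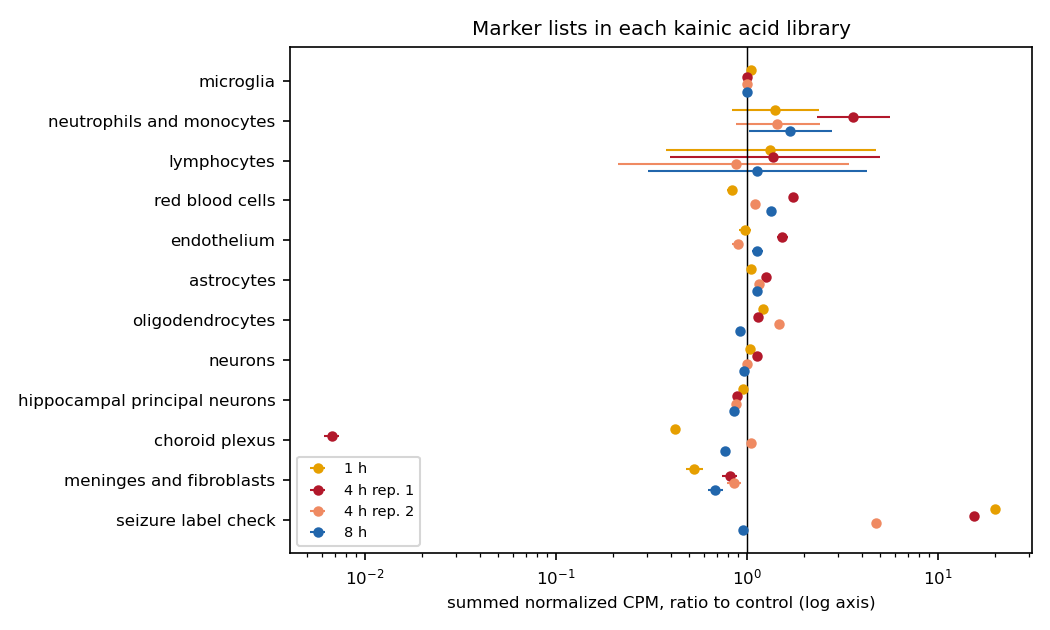
Summed normalized CPM of each marker list as a ratio to the control (horizontal log axis), with a point for each kainic acid library and exact 95% intervals as bars. Microglial markers lie at 1 to 1.06, and choroid plexus markers of replicate 1 at 4 h at 0.00671.

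The genes whose pattern was most like that of the 10 were named by Euclidean distance between log2 ratios to the control over the 4 kainic acid libraries, among 17299 genes with at least 20 reads in a library. For the median of the 10 genes they were Lrrc32 (distance 0.48), A930023M06Rik (0.49), Gm37084 (0.51), Gm45461 (0.52) and Crem (0.54). Crem, a transcription factor gene induced by cAMP, had 235, 630, 919, 419 and 286 reads. For Ccl2 alone they were Asb4 (0.62), F830212C03Rik (0.77) and Tnfrsf12a (0.77), and for Il1b alone Gm37166 (0.32), Gm37420 (0.61) and Gm48624 (0.65).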

How the data were processed

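The 5 libraries were counted per gene by the authors and deposited as raw counts without normalization. The submitters' processing notes name STAR 2.5.1b, HTSeq and GRCm38.p4; for the strand setting and the annotation release the sources used here have no entry, so each is not given in the sources used here. Lines naming no gene were left out of library sizes; the share on no gene was 24.7%, 29%, 33.1%, 25.3% and 30.9% (control, 1 h, 4 h replicates 1 and 2, 8 h), ambiguous reads 1.26% to 1.52% and reads aligned more than once 9.67% to 11.6%.

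Genes were filtered with filterByExpr (19768 kept), scaled with TMM and fitted with edgeR 4.0.16 in R 4.3.3 (glmQLFit, 4 groups, 1 residual degree of freedom, prior count 2, or 0.125 as an alternative), with Benjamini-Hochberg adjustment over all genes and a threshold of 0.05. DESeq2 1.42.0, limma-voom (limma 3.58.1), other scalings, filters and assumed biological coefficients of variation of 0.2 and 0.4 were alternatives. Exact Poisson and binomial 95% intervals (scipy) were used for counts and ratios, with a floor of 3 reads. Gene models were from GENCODE M21, in which all 10 identifiers matched with their version.

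Named were the 10 genes; from each list the 2 with most reads and up to 4 with the largest ratio to the control among genes with at least 20 reads in a library; and the genes of nearest pattern (0.25 CPM added). Lists were receptors, processing, feedback, targets, other chemokines, other cytokines, activity markers and markers of 11 cell types. Elane, Ly6g and Cd3d were named as defining markers at 0, after the values had been seen, and so were Casp1, Ccr2, and ETV3L as the gene edgeR called. The members and lists were chosen with earlier results of these data known. Figures were drawn with matplotlib.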

Additional observations from a re-analysis of the deposited data

Results flagged for a closer look

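ETV3L, which is not among the 10 genes, was the only gene that edgeR called between time points, and the only one it called at 4 h versus the control. It had 1 read in the control, 2 at 1 h, 963 and 982 in replicates 1 and 2 at 4 h, and 365 at 8 h, and its log2 fold change at 4 h versus 1 h was 7.93. In each of these comparisons 6 of 8 alternatives called it, and median-of-ratios factors and limma-voom did not. A test of the difference between these time points brought it here, and the cause was not tested.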

How the results depend on the processing

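Without a filter on low counts, 5, 5 and 2 of the 10 genes were called at 1, 4 and 8 h, 3 at 4 h versus 1 h and 3 at 8 h versus 4 h; with the biological coefficient of variation set to 0.2 the counts were 5, 5, 2, 3 and 3. With 0.4 they were 1 at 1 h, 4 at 4 h, 1 at 4 h versus 1 h and 2 at 8 h versus 4 h. At 4 h, library size alone called 1 and DESeq2 called 2. Median-of-ratios factors, limma-voom and robust empirical Bayes called 0 in each comparison. With at least 10 counts in every library none of the 10 genes was left to test. For the comparisons between time points, calls over all genes were not counted under the alternatives. The counts of the 10 genes there have no background and cannot be read as a result. Over all genes at 1, 4 and 8 h, library size alone called 57, 237 and 22, DESeq2 50, 234 and 33, no filter 285, 1300 and 279, the coefficient set to 0.2 called 238, 916 and 184, and set to 0.4 it called 40, 81 and 12. At 1 h a minimum of 10 counts and robust empirical Bayes each called 1 gene. Median-of-ratios factors and limma-voom called 0 of all genes at 1, 4 and 8 h, and the minimum of 10 counts called 0 at 4 h and 8 h. The cause was not tested.

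The count of the 10 genes at least 2-fold higher at 4 h was 3 without replicate 1 (2.99% of all genes) and 8 without replicate 2 (6.58%). At 8 h it was 1 with a 4-fold threshold and 2 with a lower limit above 2. For these settings at 8 h the share of all genes was not counted, so the counts have no background. Of 376 fitted log2 fold changes of single genes under the alternatives, 334 had a test: 286 kept direction and stayed short of the threshold, and 47 were newly past it. Of the 286, 40 differ in the prior count alone, which leaves p as it was. No value was past the threshold to begin with, so none could be lost. Of the 42 without a test, 12 from DESeq2 and 6 without replicate 1 moved by more than the SD of that gene's own log2 CPM between the 4 h replicates. The sign changed for 1 value: Tnf at 8 h versus 4 h was 0.27 with limma-voom and -0.51 with edgeR, and neither was called. Most of the 10 genes had under 40 reads in a library, so small changes were not detectable, and only 4 h was replicated.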
